A study of Mus musculus with 12 samples.

Results

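Fgf2, Fgf7, Il17rd and Etv5 are 2 genes for fibroblast growth factors and 2 genes that act within or respond to the pathway these factors start. They were picked by name from the authors' deposited tables of genes listed per comparison. All their probe sets were described over 4 groups of sorted mouse spinal cord cells. The 4 genes had 6 probe sets, of 4575 genes and 5116 probe sets that carried a name. Fgf2 and Fgf7 had 1 probe set each, and Il17rd and Etv5 had 2 each, called here the brightest and the second by their mean over all arrays. Every gene but Fgf7 stood in the table by which the authors set the 2 sorts apart, and Fgf7 and Il17rd stood in the one for dorsal against ventral astrocytes. For a gene listed in a table, the values of that comparison chose it, so they are given as a description with no test.

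Every group came from spinal cords of Aldh1l1-GFP transgenic mice at postnatal day 7, on a Swiss-Webster background. In these mice the regulatory region of Aldh1l1, a folate enzyme gene of astrocytes, drives green fluorescent protein, so "astrocyte" means a cell in which that transgene was on. Dorsal or ventral cord was dissociated with papain and sorted by flow cytometry into GFP-positive astrocytes and cells without GFP, which the labels call non-astrocytes and which mix all other cell types. Each of the 4 groups, astrocytes and non-astrocytes of either region, had 3 biological replicates, with 1 array each. The sources used here do not say how many animals went into a replicate.

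Fibroblast growth factors are secreted proteins that bind receptor tyrosine kinases on the cell surface, with heparan sulfate as a cofactor, and activate the Ras and ERK kinase cascade. ERK activity raises transcription factors of the ETS family, Etv4 and Etv5 among them, and inhibitors that damp the same cascade, such as sprouty proteins, dual specificity phosphatases and Il17rd (also known as Sef). In the developing spinal cord the pathway is known for its part in patterning and in the formation of glia, and the receptor gene Fgfr3 is a marker of astrocytes and their precursors.

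The promoters are shown because 3 of the 4 genes followed the same order of sorts across the groups and Fgf7 did not. Those 3 were listed by the authors for a difference between the sorts and Fgf7 was not, so this split followed in part from the listing. The sequences are those of RefSeq (GRCm38.p6), from 250 bases before to 50 bases after the transcription start, 5′ to 3′ on the strand of the gene. Etv5 has 2 annotated starts. Capitals mark matches to 3 motifs searched on both strands, CGGAAG and AGGAAG, which are cores bound by ETS factors, and TGANTCA, the AP-1 element. No 2 of the matches found overlap.
Fgf2, chr3:37348403-37348702, plus strand: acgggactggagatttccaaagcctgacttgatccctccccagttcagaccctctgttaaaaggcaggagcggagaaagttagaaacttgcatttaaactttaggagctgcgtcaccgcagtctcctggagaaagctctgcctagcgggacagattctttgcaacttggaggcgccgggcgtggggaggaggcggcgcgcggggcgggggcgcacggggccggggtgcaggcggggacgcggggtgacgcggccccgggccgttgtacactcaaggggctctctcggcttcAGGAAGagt
Fgf7, chr2:126034408-126034707, plus strand: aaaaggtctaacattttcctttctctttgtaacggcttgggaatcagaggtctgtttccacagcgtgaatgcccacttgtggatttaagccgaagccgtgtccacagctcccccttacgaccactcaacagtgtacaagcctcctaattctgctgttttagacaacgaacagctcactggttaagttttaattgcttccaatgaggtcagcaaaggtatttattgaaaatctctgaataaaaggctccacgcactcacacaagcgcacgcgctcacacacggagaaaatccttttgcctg
Il17rd, chr14:27038751-27039050, plus strand: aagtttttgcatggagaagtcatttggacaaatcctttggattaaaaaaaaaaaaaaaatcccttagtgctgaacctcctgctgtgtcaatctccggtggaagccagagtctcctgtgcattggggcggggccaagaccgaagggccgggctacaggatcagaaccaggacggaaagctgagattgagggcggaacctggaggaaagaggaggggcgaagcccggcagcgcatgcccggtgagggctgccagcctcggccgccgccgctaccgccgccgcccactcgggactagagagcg
Etv5 start 1, chr16:22439521-22439820, minus strand: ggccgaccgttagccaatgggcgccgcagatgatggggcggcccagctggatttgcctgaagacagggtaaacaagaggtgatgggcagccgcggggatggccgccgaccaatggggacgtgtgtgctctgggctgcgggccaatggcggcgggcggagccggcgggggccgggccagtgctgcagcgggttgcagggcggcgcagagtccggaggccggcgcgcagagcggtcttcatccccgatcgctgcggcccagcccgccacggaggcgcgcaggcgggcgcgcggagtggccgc
Etv5 start 2, chr16:22438319-22438618, minus strand: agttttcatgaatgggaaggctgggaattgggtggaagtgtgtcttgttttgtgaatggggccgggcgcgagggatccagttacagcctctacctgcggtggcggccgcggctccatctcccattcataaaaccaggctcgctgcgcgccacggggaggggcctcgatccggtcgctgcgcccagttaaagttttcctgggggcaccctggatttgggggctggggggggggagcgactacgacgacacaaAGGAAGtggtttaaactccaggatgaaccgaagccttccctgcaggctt
AGGAAG occurred 1 time in the Fgf2 window, 41 bases after the start, and 1 time in the window of Etv5 start 2, 1 base after the start. Of 32851 promoters of the same length, 35.4% held AGGAAG, 16.9% held CGGAAG and 7.81% held TGANTCA. The windows of Fgf7, Il17rd and Etv5 start 1 held none of these letters. GC content was 45.7% for Fgf7, against 62.7% for Fgf2, 58.3% for Il17rd and 74.0% and 60.0% for the 2 starts of Etv5; the median of all promoters was 52.7%. A match in letters is a description and shows no binding.

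The arrays resembled each other in scale, with medians of 6.57 to 6.62 on the log2 scale over 28467 probe sets. The sorts separated on the first principal component, which took up 69.5% of the variance. The mean level of 10 named astrocyte markers was 10.70 to 10.92 in the 6 astrocyte arrays. In the 6 non-astrocyte arrays it was 6.94 to 7.32. Markers of microglia (10 named genes) averaged 6.36 to 6.97 in astrocytes and 8.39 to 9.20 in non-astrocytes, and those of myelinating oligodendrocytes (10 named genes) 8.28 to 8.88 and 10.54 to 11.09. Nearly all names came from the authors' table of the sorts, and 99.6% of all named probe sets passed in that comparison in limma. That these markers differed between the sorts therefore followed largely from the naming, and their levels are a description. Markers without a name could not be included. In such bulk samples, fewer cells of a type and less RNA per cell cannot be told apart.

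Fgf2, basic fibroblast growth factor, is a mitogen of neural progenitors and astrocytes. Its log2 signal in replicates 1, 2 and 3 was 7.03, 7.03 and 6.86 in dorsal astrocytes and 6.8, 7.17 and 7.02 in ventral astrocytes. In dorsal non-astrocytes it was 6.38, 6.50 and 6.28, and in ventral non-astrocytes 6.06, 5.98 and 6.08. All 6 astrocyte arrays lay above all 6 non-astrocyte arrays, and dorsal and ventral astrocytes overlapped. Dorsal non-astrocytes lay above ventral ones. The sorts did not overlap for 22.3% of all probe sets, and all dorsal non-astrocyte values exceeded the ventral ones for 5.73%. The means were 6.97 ± 0.10 in dorsal astrocytes, 7.00 ± 0.19 in ventral astrocytes, 6.39 ± 0.11 in dorsal non-astrocytes and 6.04 ± 0.05 in ventral non-astrocytes (SD, n = 3). Both non-astrocyte means lay below the array medians of 6.57 to 6.62. Whether signals at this level can show the full size of a difference was not tested.

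Fgf2 was 0.77 higher in astrocytes than in non-astrocytes on the log2 scale (SE 0.07, a 1.70-fold difference), by which the authors' table lists it. Within the dorsal cord that difference was 0.58, and within the ventral cord it was 0.95. The dorsal minus ventral difference of astrocytes was -0.03 (SE 0.11, 95% interval -0.25 to 0.20, limma adjusted p = 0.957) and did not exceed the replicate spread. Between dorsal and ventral non-astrocytes it was 0.34 (SE 0.11, interval 0.12 to 0.57). That difference had an unadjusted p of 0.00626 and an adjusted p of 0.536 in limma, and so missed the threshold of 0.05. The regional difference of astrocytes minus that of non-astrocytes was -0.37 (SE 0.15, limma adjusted p = 0.615).

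Fgf7, also called keratinocyte growth factor, acts mainly through a splice form of the receptor Fgfr2 and is known for signals from mesenchyme to epithelium; in the mouse hippocampus it organises inhibitory synapses. Its log2 signal was 5.68, 5.44 and 6.40 in dorsal astrocytes and 6.94, 7.88 and 7.73 in ventral astrocytes. It was 7.37, 6.74 and 6.85 in dorsal non-astrocytes and 6.05, 6.94 and 6.89 in ventral non-astrocytes. Every ventral astrocyte array lay above every dorsal one, while the non-astrocyte groups overlapped each other and the ventral astrocytes. Replicate 3 of the dorsal astrocytes stood closest to the other groups, and replicate 1 of the ventral astrocytes was the lowest of its group.

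The order of the Fgf7 means was ventral astrocytes (7.52 ± 0.51), dorsal non-astrocytes (6.99 ± 0.34), ventral non-astrocytes (6.63 ± 0.50) and dorsal astrocytes (5.84 ± 0.50; SD, n = 3), and the values of each neighbouring pair in that order overlapped. Ventral astrocytes exceeded dorsal astrocytes by 1.68 on the log2 scale (SE 0.31), a 3.20-fold difference. The dorsal astrocyte mean lay below the array medians of 6.57 to 6.62. Whether a signal at this level can show the full size of a difference was not tested. The authors' deposited table gives the ratio of dorsal to ventral as 0.312, with a limma adjusted p of 0.0962. The dorsal minus ventral difference of non-astrocytes had the other sign, 0.36 (SE 0.31, interval -0.32 to 1.04, limma adjusted p = 1.0), and did not pass the test. The difference between the 2 regional differences was -2.04 (SE 0.44), which rests on the values that listed the gene and carries no test.

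Over both regions Fgf7 did not separate the sorts. Astrocytes minus non-astrocytes was -0.13 on the log2 scale (SE 0.22, interval -0.61 to 0.35, limma adjusted p = 0.702). The authors' table of that comparison, where nearly all named probe sets passed, does not hold Fgf7. Missing the threshold was therefore largely set by the listing, and the value is a description. Within the dorsal cord Fgf7 was lower in astrocytes, by -1.15 (SE 0.31), and the groups did not overlap, as was so for 40.5% of all probe sets. Within the ventral cord it was higher in astrocytes, by 0.89, and the groups overlapped. Both of these share the astrocyte arrays by which the gene was listed, so they are descriptions.

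**Figure D1:**
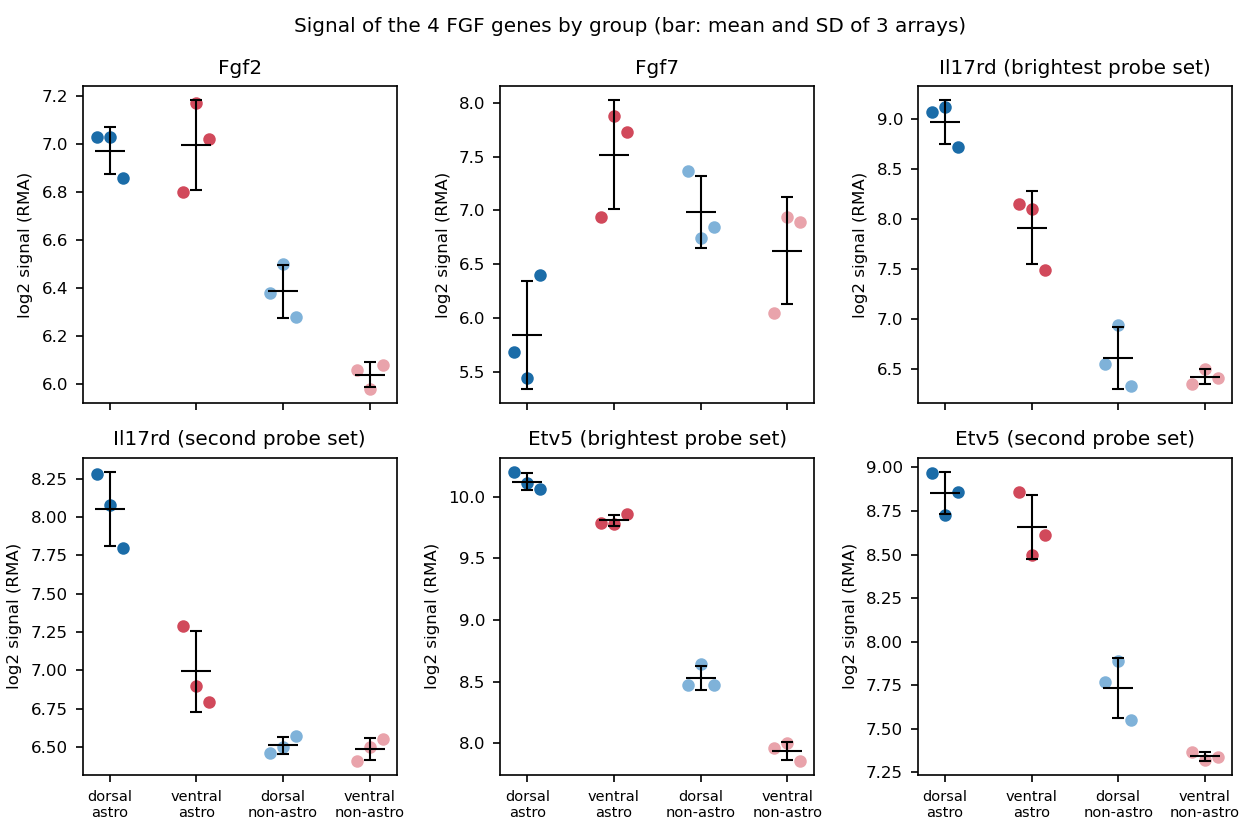
Log2 signal of the 6 probe sets in each array, by group (astro, astrocytes; non-astro, non-astrocytes), with the group mean and SD of 3 arrays; each panel has its own vertical scale, which does not start at 0. Fgf2, Il17rd and Etv5 were higher in both astrocyte groups than in both non-astrocyte groups, and Fgf7 was lowest in dorsal astrocytes (5.84) and highest in ventral astrocytes (7.52).

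Marker levels of other cell types were compared between the same astrocyte groups. Of 12 listed meningeal and other fibroblast markers 5 had a name, and their mean level was 7.37 to 7.71 in dorsal astrocytes, 7.80 to 8.08 in ventral astrocytes, 7.50 to 7.80 in dorsal non-astrocytes and 7.50 to 7.69 in ventral non-astrocytes. Within that list Fmod, for the collagen-binding proteoglycan fibromodulin, and Bgn, for biglycan, were both listed by the authors as higher in ventral astrocytes, with dorsal minus ventral differences of -1.39 (SE 0.15) and -1.38 (SE 0.19). Col1a2, Pdgfra and Igf2, the other 3 of the list, had dorsal minus ventral differences of the opposite sign, 0.29, 0.20 and 0.31, with limma adjusted p values of 0.547, 0.733 and 0.618, and the median of the 5 was 0.20. The mean of 8 oligodendrocyte precursor markers was 7.75 to 7.87 in dorsal and 7.93 to 8.10 in ventral astrocytes. That of 5 mural cell markers was 6.60 to 6.75 and 6.76 to 6.93, and that of 6 endothelial markers 6.04 to 6.15 and 6.16 to 6.31. The 2 named ependymal markers averaged 6.87 to 7.22 and 7.92 to 7.99. Of these Dnah12, for a ciliary dynein and listed by the authors in this comparison, differed by -1.49 between astrocyte regions and by -1.49 between non-astrocyte regions (limma adjusted p = 0.037 in the latter), while Rarres2 differed by -0.23 between astrocyte regions (limma adjusted p = 0.756). None of the precursor, mural, endothelial, myelinating oligodendrocyte, neuron or microglia markers passed the test between dorsal and ventral astrocytes. The part of any of these cells in the Fgf7 difference was not tested.

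Il17rd encodes a membrane protein that inhibits signalling from fibroblast growth factor receptors to ERK and is itself raised by that signalling. The brightest probe set read 9.07, 9.12 and 8.72 in dorsal astrocytes and 8.15, 8.10 and 7.49 in ventral astrocytes. It read 6.55, 6.94 and 6.33 in dorsal and 6.35, 6.50 and 6.41 in ventral non-astrocytes. The 3 dorsal astrocyte arrays lay above the 3 ventral ones, both lay above all non-astrocyte arrays, and the 2 non-astrocyte groups overlapped. Over all probe sets, the 2 astrocyte groups did not overlap for 12.5% and the sorts did not overlap for 22.3%. The means were 8.97 ± 0.22, 7.91 ± 0.37, 6.61 ± 0.31 and 6.42 ± 0.07 in that order of groups (SD, n = 3).

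The second Il17rd probe set gave 8.28, 8.08 and 7.80 in dorsal astrocytes and 7.29, 6.90 and 6.79 in ventral astrocytes. Its non-astrocyte values were 6.46, 6.50 and 6.57 dorsally and 6.41, 6.50 and 6.55 ventrally. The order of the groups and their overlaps were those of the brightest probe set, and the correlation of both sets over the 12 arrays was 0.94. This correlation is a description over arrays that share the split by sort.

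By the comparisons that listed it, Il17rd was 1.93 higher in astrocytes than in non-astrocytes (SE 0.13, 3.81-fold) at the brightest probe set and 1.02 higher (SE 0.10, 2.03-fold) at the second. Dorsal astrocytes exceeded ventral astrocytes by 1.06 at both probe sets (SE 0.19 and 0.14), a 2.08-fold difference. For this comparison the authors' limma adjusted p was 0.138 at the brightest probe set and 0.0257 at the second. The excess of astrocytes over non-astrocytes was wider in the dorsal cord, 2.36 and 1.54, than in the ventral cord, 1.49 and 0.51. The comparison that did not list Il17rd was the regional one of non-astrocytes. There the dorsal minus ventral difference was 0.19 (SE 0.19, interval -0.22 to 0.59) and 0.02 (SE 0.14, interval -0.28 to 0.33). Both had a limma adjusted p of 1.0, and with 3 arrays a group the wider interval leaves room for a difference of up to 0.59. The regional difference of astrocytes minus that of non-astrocytes was 0.87 (SE 0.26) and 1.03 (SE 0.20), as a description. The non-astrocyte means, 6.61 and 6.42 at the brightest probe set and 6.51 and 6.49 at the second, lay near the array medians of 6.57 to 6.62. Whether a signal at this level can show a regional difference was not tested.

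Etv5 encodes a transcription factor of the ETS family that is induced by signalling of fibroblast growth factors and serves as a readout of it. The brightest probe set read 10.20, 10.11 and 10.06 in dorsal astrocytes and 9.79, 9.78 and 9.86 in ventral astrocytes. It read 8.47, 8.64 and 8.47 in dorsal non-astrocytes and 7.96, 8.0 and 7.86 in ventral non-astrocytes. No neighbouring groups overlapped: dorsal astrocytes came first, ventral astrocytes second, then the dorsal and last the ventral non-astrocytes. The means were 10.12 ± 0.07, 9.81 ± 0.04, 8.53 ± 0.10 and 7.94 ± 0.07 (SD, n = 3). Over all probe sets, the sorts did not overlap for 22.3%, and dorsal and ventral astrocytes did not overlap for 12.5%. All dorsal non-astrocyte values exceeded the ventral ones for 5.73%.

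Etv5 was the 1 gene of the 4 that passed the test between regions where it had not been listed. In non-astrocytes the dorsal minus ventral difference was 0.58 (SE 0.08, interval 0.40 to 0.77), a 1.5-fold difference with an adjusted p of 0.037 in limma. Of all 28467 probe sets 14, or 0.0492%, passed in this comparison, and of the 6 probe sets described here 1 did. With the replicate number as a block shared by all 4 groups, astrocytes included, the limma adjusted p of Etv5 was 0.0802. A fit that pairs the 2 non-astrocyte groups alone was not run. The difference was 0.53 to 0.62 over the 21 other settings, and the limma adjusted p stayed under 0.05 in 5 of them. Many of these settings, such as the block, the filters and leaving out astrocyte arrays, keep the non-astrocyte means. The difference could not move in those. Leaving out single arrays gave adjusted p values of 0.0469 to 0.257, the highest without replicate 2 of the dorsal non-astrocytes.

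Within astrocytes the dorsal minus ventral difference of Etv5 was 0.31 (SE 0.08, interval 0.13 to 0.49, 1.24-fold). The groups did not overlap, as was so for 12.5% of all probe sets, but the unadjusted p of 0.00298 became 0.203 after limma's adjustment over all probe sets. In this comparison 97 probe sets, or 0.341%, passed. The difference between both regional differences was -0.27 (SE 0.12, limma adjusted p = 0.664; 0.0632% of all probe sets passed this test), so a regional difference that was larger in one sort than in the other was not shown for Etv5. The excess of astrocytes over non-astrocytes, by which it was listed, was 1.73 (SE 0.06, 3.32-fold), with 1.59 in the dorsal and 1.87 in the ventral cord.

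The second probe set under the name Etv5 read 8.97, 8.73 and 8.86 in dorsal astrocytes and 8.86, 8.50 and 8.61 in ventral astrocytes. It read 7.77, 7.89 and 7.55 in dorsal and 7.37, 7.32 and 7.34 in ventral non-astrocytes. It followed the brightest one closely, with a correlation of 0.99 over 12 arrays, but its dorsal and ventral astrocyte values overlapped. Its dorsal minus ventral difference was 0.20 in astrocytes (SE 0.12, limma adjusted p = 0.602) and 0.39 in non-astrocytes (SE 0.12, limma adjusted p = 0.492), and neither passed. Its astrocyte minus non-astrocyte difference was 1.21 (SE 0.08, 2.32-fold).

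The place of this second probe set in the numbering of the array differed from that of the others. Probe set numbers run largely along the chromosomes, and for the other 5 probe sets 11 or 12 of the 12 nearest named neighbours lay on the gene's own chromosome in RefSeq (GRCm38.p6). The second Etv5 probe set had 12 of 12 neighbours on chromosome 10, between Fam13c and Hbs1l, while Etv5 lies on chromosome 16. The name is the authors', and whether this probe set reads Etv5 RNA was not tested.

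**Figure D2:**
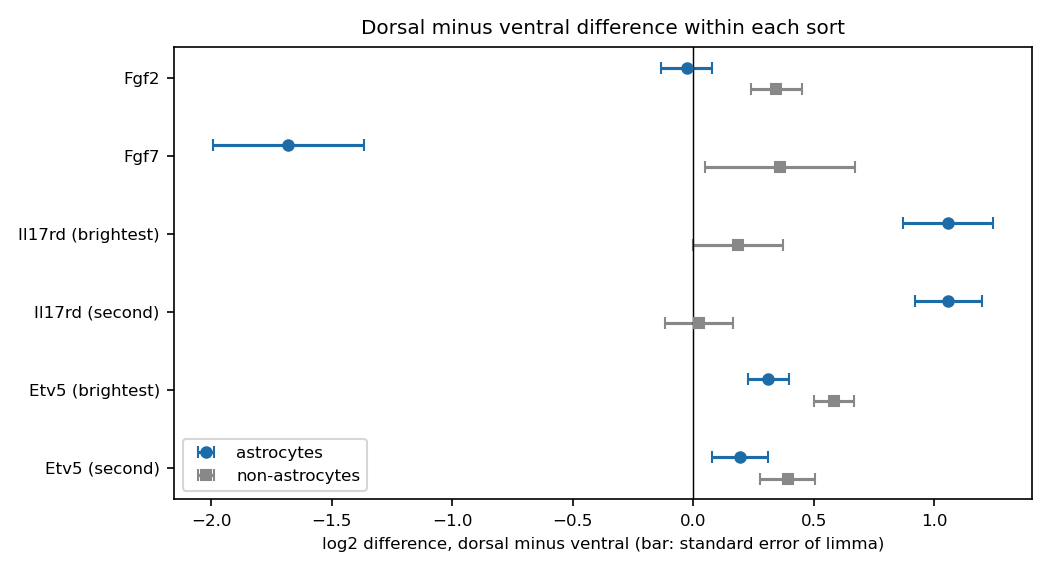
Dorsal minus ventral difference of each probe set on the log2 scale, for astrocytes (circles) and non-astrocytes (squares), with the standard error of limma. In astrocytes Fgf7 lay at -1.68 and both Il17rd probe sets at 1.06, which are the values that listed them; in non-astrocytes the brightest Etv5 probe set lay at 0.58 and the other 5 between 0.02 and 0.39.

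The 4 genes were next set beside the rest of the pathway, from lists of 84 genes of which 31 had a name on the array. Nearly all names came from the table the authors made for the 2 sorts, and 99.6% of all named probe sets passed in that comparison (36.2% of all probe sets). The counts between sorts therefore describe which way a listed gene went and support nothing about the pathway. Of the 27 named genes other than the 4, 13 were higher and 14 lower in astrocytes.

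Among ligands 5 of 22 had a name. Fgf1, which binds all the receptors of the family, was 2.33 higher in astrocytes (SE 0.12), while Fgf14 differed by 0.43 (SE 0.12) and Fgf13 by -0.60 (SE 0.11). Fgf13 and Fgf14 belong to the intracellular members of the family that bind sodium channels and are not secreted. Fgf2, at 0.77, and Fgf7, at -0.13, were the other 2.

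Receptors and partners had 5 named genes of 12, of which 4 were higher in astrocytes. The receptor genes Fgfr3 and Fgfr1 were 2.47 (SE 0.10) and 1.18 (SE 0.06) higher. Flrt2, for a membrane protein that binds these receptors, was 1.41 higher, and its relative Flrt3 was lower, at -0.75. The receptor of Fgf7, Fgfr2, was not among the named genes and is not described here.

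The feedback inhibitors, the list of Il17rd, had 6 named genes of 12, and 5 were higher in astrocytes. Beside Il17rd these were Spry2 at 1.70 (SE 0.12), Spred2 at 1.70 (SE 0.11), Dusp6, for a phosphatase of ERK, at 0.71 and Spred1 at 0.65, while Spry3 lay at -0.96. Between dorsal and ventral astrocytes Spry2, Spred2, Dusp6 and Spred1 differed by -0.17, 0.02, 0.10 and -0.16, and their limma adjusted p values were 0.605 to 0.980. Spry3 differed by 0.39 (SE 0.19, limma adjusted p = 0.496), in the direction of Il17rd. Il17rd, at 1.06, was the 1 gene of this list in the authors' table of dorsal against ventral astrocytes.

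The transcription factors, the list of Etv5, had 8 named genes of 17, with 3 higher and 5 lower in astrocytes. Etv4, the close relative of Etv5, was 1.41 higher (SE 0.10) and the immediate early gene Fos 1.37 higher (SE 0.16). Ccnd1, for cyclin D1, was lower, at -1.31 (SE 0.09), and Myc lay at -0.67. In non-astrocytes, where Etv5 passed between the regions, Etv4 differed by 0.18 (limma adjusted p = 1.0) and Fos by 0.35 (limma adjusted p = 1.0). Of 7 named adaptors and kinases of the ERK cascade 6 were lower in astrocytes, among them Mapk3, for the kinase ERK1, at -1.25 (SE 0.11), and 1 was higher, the receptor adaptor Frs2, at 0.62.

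Between regions, 0 of the 27 other genes passed in astrocytes and 0 passed in non-astrocytes in limma. At an unadjusted p below 0.05 there were 5 in astrocytes (Fgf14, Fgfr1, Flrt1, Flrt2 and Fos) and 5 in non-astrocytes (Fgf13, Fgf14, Flrt3, Spred2 and Egr2). Over all probe sets 10.4% lay below it in astrocytes and 5.25% in non-astrocytes. The median dorsal minus ventral difference of these 27 was 0.02 in astrocytes and 0.11 in non-astrocytes, against -0.016 and -0.0031 over all probe sets. The largest in astrocytes were those of Flrt2, at -0.67 (SE 0.15, limma adjusted p = 0.103), and Fos, at 0.66 (SE 0.22, limma adjusted p = 0.312). In non-astrocytes the largest was that of Egr2, an early response gene, at 0.84 (SE 0.34, limma adjusted p = 0.810).

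**Figure D3:**
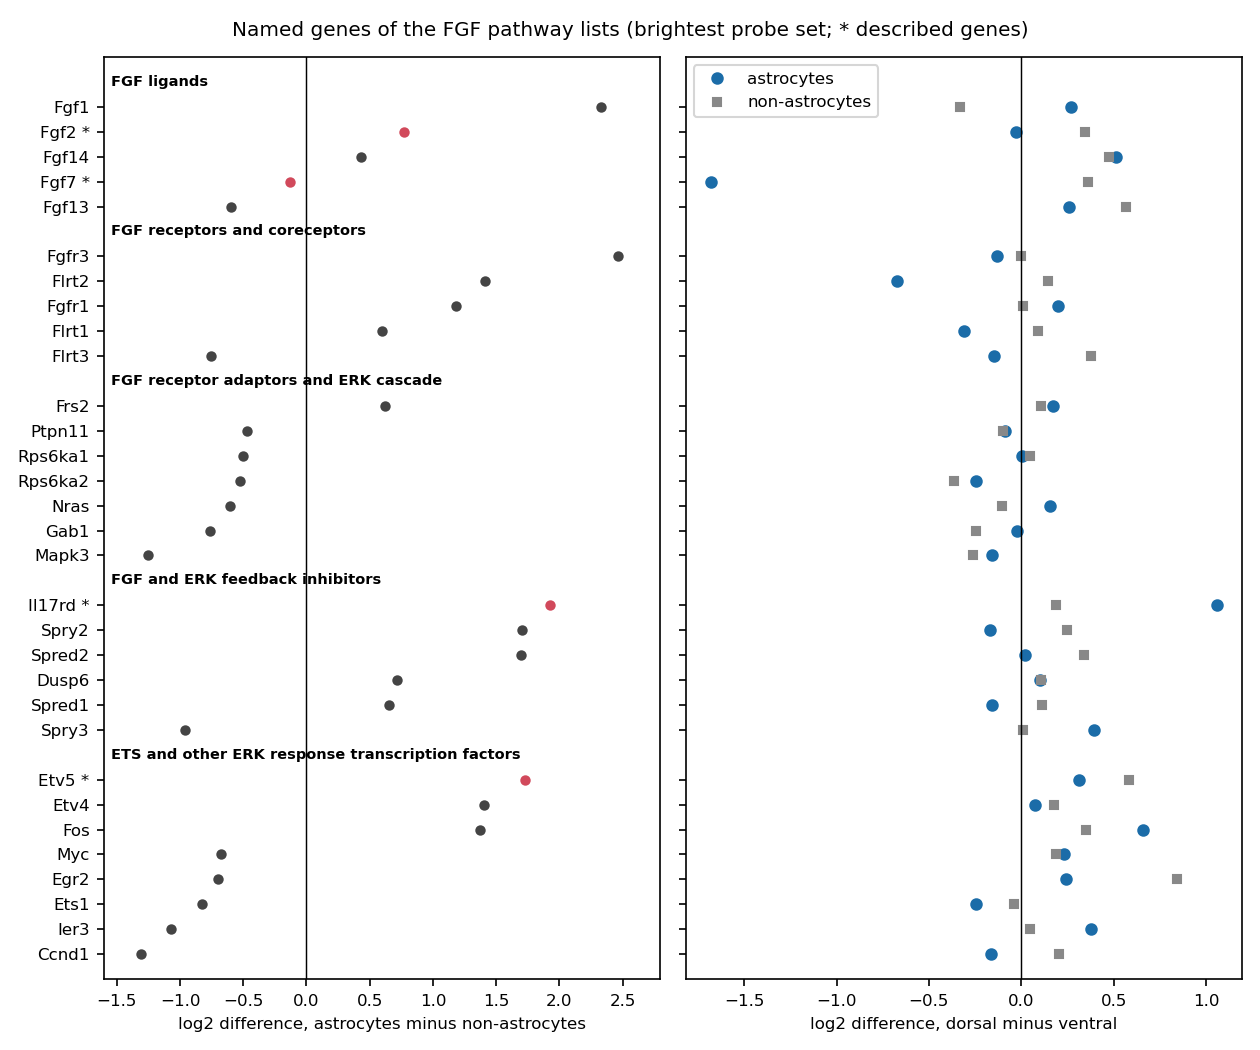
Log2 difference of each named gene of the pathway lists between sorts (left) and between regions (right; circles, astrocytes; squares, non-astrocytes), at its brightest probe set, with asterisks at the 4 genes described. Fgf7 at -1.68 and Il17rd at 1.06, which are the values that listed them, lie farthest from 0 among astrocytes, where the next is Flrt2 at -0.67.

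At the brightest probe sets, Pearson's r over the 12 arrays was 0.96 for Fgf2 with Etv5, 0.94 for Il17rd with Etv5 and 0.87 for Fgf2 with Il17rd. Fgf7 had an r of 0.00 with Fgf2, -0.40 with Il17rd and -0.16 with Etv5. The second Il17rd probe set had an r of 0.70 with Fgf2, 0.83 with Etv5 and -0.61 with Fgf7. These are descriptions over arrays that share the split into sorts, which sets most of each value.

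Among 4574 other named genes the 5 most alike to each gene were taken by r over the 12 arrays. Those of Fgf2 were Cadps, Rgcc, Dbp, Adgrl1 and Rap2b, all with an r of 0.97. Those of Etv5 began with Lgalsl (0.996), Kcnip3 and Fut9 (both 0.99), and those of Il17rd were Hectd2 (0.99), Hunk, Slc13a5, Ptprg and Cybrd1 (all 0.98). An r above 0.9 was reached by 694 genes for Fgf2, 1118 for Etv5 and 554 for Il17rd. For Fgf7 0 genes reached it. Nearly all of the 4574 genes were named through the authors' table of the sorts, which lists Fgf2, Il17rd and Etv5 but not Fgf7. These counts therefore follow in part from the naming and are a description. The genes most like Fgf7 were Padi2 (0.81), Itih5 (0.81), Gpr37 (0.78), Scrg1 (0.76) and Plcb1 (0.73), each of which had its lowest mean in dorsal astrocytes. All 5 were, like Fgf7, among the 39 rows the authors listed for dorsal against ventral astrocytes. For the second Il17rd probe set, where the dorsal astrocytes stood farther from the rest, 56 genes reached 0.9, and the most alike were Cyp4f15 (0.99) and the transcription factor genes Pax3 and Zic1 (both 0.96), which are known in the dorsal neural tube.

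**Figure D4:**
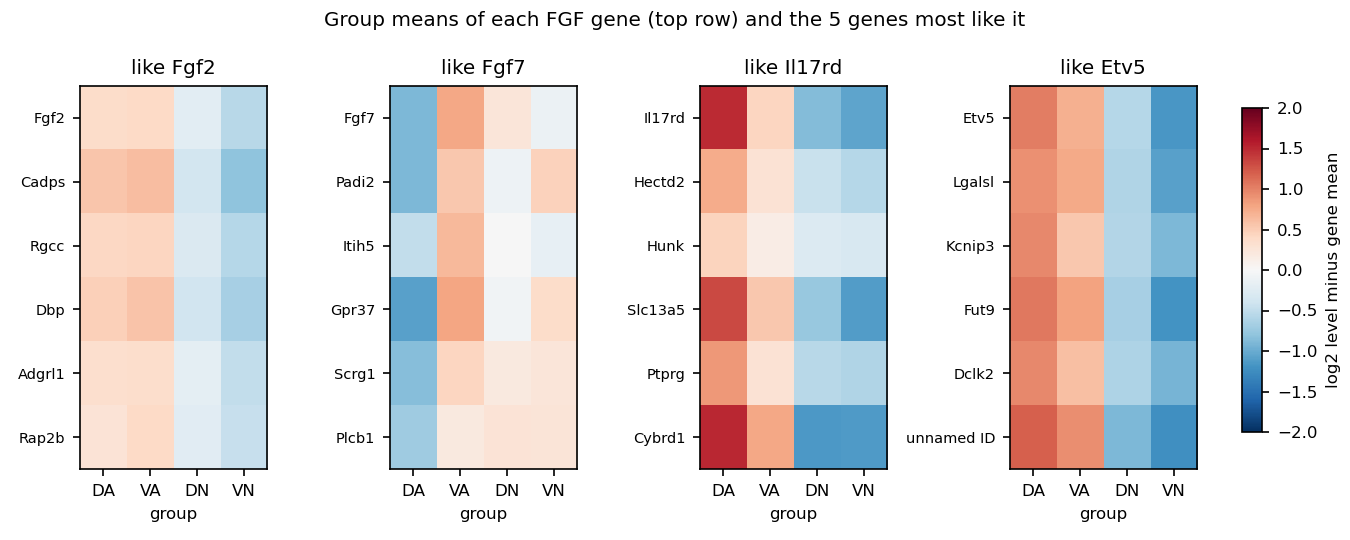
Group mean minus the mean of the 4 groups, on the log2 scale, for each gene (top row) and the 5 genes most like it (DA and VA, dorsal and ventral astrocytes; DN and VN, dorsal and ventral non-astrocytes; "unnamed ID" is a gene listed by an identifier alone). The rows under Fgf2, Il17rd and Etv5 run from red in astrocytes to blue in non-astrocytes, and those under Fgf7 are lowest in dorsal astrocytes.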

How the data were processed

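RNA was amplified, labelled with biotin and hybridised to 12 arrays, per the labels' protocols. The authors deposited log2 RMA values per probe set (oligo, RMA and limma, per the submitters' processing notes). Their versions were not given in the sources used here, nor was a genome build. In 2 further tables the authors deposited, per probe set, a name, the same log2 values, a linear ratio (fold change), a score (limma's t statistic) and p-values, raw and adjusted. Only these tables name probe sets, so names were joined by matching the 12 values to 6 decimals; all 5158 and 39 rows matched, naming 5116 probe sets of 4575 genes, and symbols were updated through RefSeq (4327 and 34 symbols, 641 and 5 synonyms, 190 and 0 not found). Of 35556 probe sets, 476 repeats and 6613 unnamed ones with consecutive leading numbers were left out, and 28467 were tested.

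Each comparison was tested two-sided with lmFit and eBayes (R 4.3.3, limma 3.58.1) over group means of all 12 arrays (8 residual and 4.60 prior degrees of freedom), with Benjamini-Hochberg adjustment and a threshold of 0.05; a gene is represented by its brightest probe set. Intervals are 95% intervals of that fit. Precision is limited by the number of arrays. The design gave astrocytes against non-astrocytes as a description for all 4 genes. Fgf7 is not in the authors' table of it, so its p value is printed, but that absence largely set the outcome. Same-numbered dorsal and ventral non-astrocytes deviated together (correlations 0.15 to 0.21, other numbers -0.14 to -0.042), so the numbers were taken to pair them. For dorsal and ventral astrocytes the same-numbered correlations (0.041 to 0.145) also lay above those of other numbers (-0.101 to 0.034). For ventral astrocytes and ventral non-astrocytes they were 0.086 to 0.124, against -0.100 to -0.017. The main fit nevertheless had no block in any group, so its p values ignore a possible pairing, and a block over all 4 groups was an alternative. The authors' column headings carry a number shared by 1 array of each group, with no stated meaning. Alternatives were the block, other probe set filters, centring, an intensity trend, fewer arrays and leaving out arrays or replicates. Genes named are the 4, all named genes of the pathway lists (examples are those of largest difference or known role), the markers and the 5 most alike by r. Members, lists and motifs were chosen with earlier results of these data known. Tables were made with pandas 2.3.3 and numpy 2.4.6 in Python 3.11.15, and figures with matplotlib 3.10.9.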

Additional observations from a re-analysis of the deposited data

How the results depend on the processing

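The number of probe sets passing between regions depended on the settings. For dorsal against ventral astrocytes it was 97, with 46 when all distinct probe sets were tested, 27 with only the arrays compared, 108 with the replicate block, and 46 to 101 without single arrays (46 without replicate 1 of the dorsal astrocytes, 48 and 62 without replicates 2 and 1 of the ventral astrocytes) or 8 to 49 without a replicate number. For non-astrocytes it was 14, with 0 under the replicate block (1716 at an unadjusted p under 0.05), 0 for all distinct probe sets (1698 unadjusted), 1 with only the arrays compared, and 0 to 31 without arrays or replicates. For the difference of both it was 18, with 3 for all distinct probe sets, 12 with the replicate block and 1 to 14 without arrays or replicates. Astrocytes against non-astrocytes gave 10305, and each alternative stayed within 1.5 times of it. Etv5 in non-astrocytes lost its call with an adjusted p of 0.0802 under the replicate block, 0.136 for all distinct probe sets and 0.122 with only the arrays compared; without arrays or replicates the adjusted p was 0.0469 to 0.577. The block changed no other call of the tested values. The sign of small differences turned in leave-outs: Fgf2 between astrocyte regions (-0.154 to 0.0597), Fgf7 between non-astrocyte regions (-0.122 to 0.642), the second Il17rd probe set between non-astrocyte regions (-0.0138 to 0.0545) and Fgf7 between sorts (-0.292 to 0.0166). The listed differences between astrocyte regions were -1.97 to -1.30 for Fgf7 and 0.85 to 1.18 and 0.94 to 1.21 for the 2 Il17rd probe sets. Fgf2 was not among the probe sets above the median level. The causes were not tested.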
